A study of Mus musculus with 8 samples.

Results

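Transcripts of 8 genes that mark pre-B and later stages of B cell development were measured in sorted pro-B cells that carry or lack a pair of miR-15 family clusters, miR-15b/16-2 on chromosome 3 and miR-15a/16-1 on chromosome 14. The genes are *Cd72*, *Siglecg*, *Fcrla*, *Bank1*, *Ms4a1*, *Fcer2a*, *Cr2* and *Il2ra*. They were taken by symbol from a table of 24746 genes, and MHC class II genes were left out. The study compared pro-B cells of 4 controls (genotype miR-15a/b+/+ Vav-Cre) with those of 4 double knockouts (DKO, genotype miR-15a/bfl/fl Vav-Cre), all C57BL/6 and aged 10 to 12 weeks, with 1 RNA library per mouse. Both groups carry Vav-Cre, which is active in all hematopoietic lineages, so other blood cells of the DKO mice lack the clusters as well. The cells were sorted from bone marrow, and in the study's flow cytometry pro-B cells are AA4.1+ IgM- B lineage cells that carry c-KIT and lack CD25. The genes for CD25 (*Il2ra*) and c-KIT (*Kit*) therefore belong to the gate.

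B cells pass from the pro-B stage, in which the heavy chain gene is rearranged, through the pre-B and immature stages to mature follicular and marginal zone cells. Along this path the surface fills with co-receptors that tune the B cell receptor. CD72 and Siglec-G dampen its signal, the CD21 product of *Cr2* lowers its threshold when complement is bound, and CD20 (*Ms4a1*) and CD23 (*Fcer2a*) are used as markers of mature cells. CD25 is used in the mouse to mark pre-B cells. *Cd72* is known to be transcribed early in the lineage, so its presence alone does not mark a late cell.

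The miRNAs encoded by the deleted clusters are shown because they share the seed against which the markers were searched. Their mature 5p sequences are credited to RefSeq (GRCm38.p6), with bases 2 to 8, the seed, in capitals. miR-15b-5p is encoded at chr3:69009775-69009796 (plus strand) and miR-15a-5p at chr14:61632075-61632096 (minus strand). miR-16-5p is encoded at both clusters, at chr3:69009918-69009939 (plus strand) and at chr14:61631936-61631957 (minus strand).
miR-15b-5p: uAGCAGCAcaucaugguuuaca
miR-16-5p: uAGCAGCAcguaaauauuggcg
miR-15a-5p: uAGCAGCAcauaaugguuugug

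The longest 3' UTR of every marker was read from GENCODE M21 (GRCm38). Matches to this seed were found in *Cd72*, *Cr2* and *Il2ra*, which is 3 of 8 genes, while 23.4% of 21020 protein-coding genes with a 3' UTR have a match. A 7mer-m8 reads TGCTGCT, a 7mer-A1 reads GCTGCTA and an 8mer, which contains both, reads TGCTGCTA. Only the transcript strand was searched. No marker had an 8mer, which 4.04% of all these genes have. Sites are shown with their neighbouring bases for each of these genes, 28 bases each, 5' to 3' on the transcript strand, with the match in capitals, because they set the 3 markers apart from the other 5. The match of *Cd72* lies at chr4:43447916-43447922, that of *Il2ra* at chr2:11692395-11692401, and those shown for *Cr2* at chr1:195138632-195138638 and chr1:195138289-195138295, in the order of the transcript.
Cd72 7mer-m8: gctaagggatgaccTGCTGCTtgcttga
Il2ra 7mer-m8: acatcagctagcagTGCTGCTttgggtt
Cr2 7mer-A1: accttcaaaggagaGCTGCTAacagaga
Cr2 7mer-m8: tctctcaaacatcaTGCTGCTcctaaac

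When the shortest annotated 3' UTR was searched, only the match of *Cd72* was left. Of the genes with a match in the longest one, *Cd72* rose in DKO cells, while *Cr2* and *Il2ra* did not pass the test. *Fcer2a*, which fell, has no match in either. A match is a description of these letters and not evidence of binding.

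Total counts ranged from 38073065 to 43288133 per library. The sort matched its label for *Igll1*, a surrogate light chain gene of early B cells, at 9442 to 12007 CPM (counts scaled to a common library size after TMM normalization). Neutrophil genes set 4 libraries apart: their 8 markers summed to 1793 to 2809 CPM in control mice 1 and 4 and DKO mice 3 and 4, and to 310 to 610 CPM in the others, so each group held both kinds. *Xist* was near 0 and Y-linked transcripts were present in control mouse 1 and DKO mice 3 and 4, so the sexes were mixed in both groups. These mice were all among those with many neutrophil transcripts, where control mouse 4 alone had *Xist*. All mice with few neutrophil transcripts had *Xist*. In fits split by neutrophil transcripts, sex and neutrophil level therefore cannot be fully told apart, and in the set with many both DKO mice lacked *Xist*. Counts from 1 to 20 were even in 75.5% to 77.8% of cases, against 53.9% to 56.3% for counts above 100 and up to 1000. Whether a low count rests on fewer independent reads than its size was not tested. Each p-value sets the difference between the groups against the spread between these mice.

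All 8 markers passed the filter on low counts. *Fcer2a* (14, 8, 8 and 14 counts in DKO mice 1 to 4) and *Cr2* (16, 29, 8 and 9) met it only with the control libraries. Their entry into the test depended on the group in which they were higher, so the filter and their direction are not independent. At an adjusted p under 0.05 over the 12714 genes tested (quasi-likelihood F-test of edgeR, Benjamini-Hochberg adjusted, 4 against 4 mice), *Cd72* was higher and *Fcer2a* was lower in DKO cells, and 6 markers did not pass, so that 4.58% of all genes tested stand beside 2 of 8. One marker higher and 1 lower of 8 stand beside 2.65% higher and 1.93% lower of all genes tested. *Cd72* and *Fcer2a* were also the only markers whose groups did not overlap, where 7.63% of all genes tested were higher and 6.21% were lower without overlap (13.8% in either direction). The markers did not move as one group: 5 had a log2 fold change above 0, as did 47.6% of all genes tested, and 3 below 0, with a median of 0.15 beside -0.01 for all genes tested. An unadjusted p under 0.05 was reached by 6 of the 8 and by 2566 of all genes tested. In bulk RNA, fewer cells that carry a transcript and less transcript per cell cannot be told apart.

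**Figure D1:**
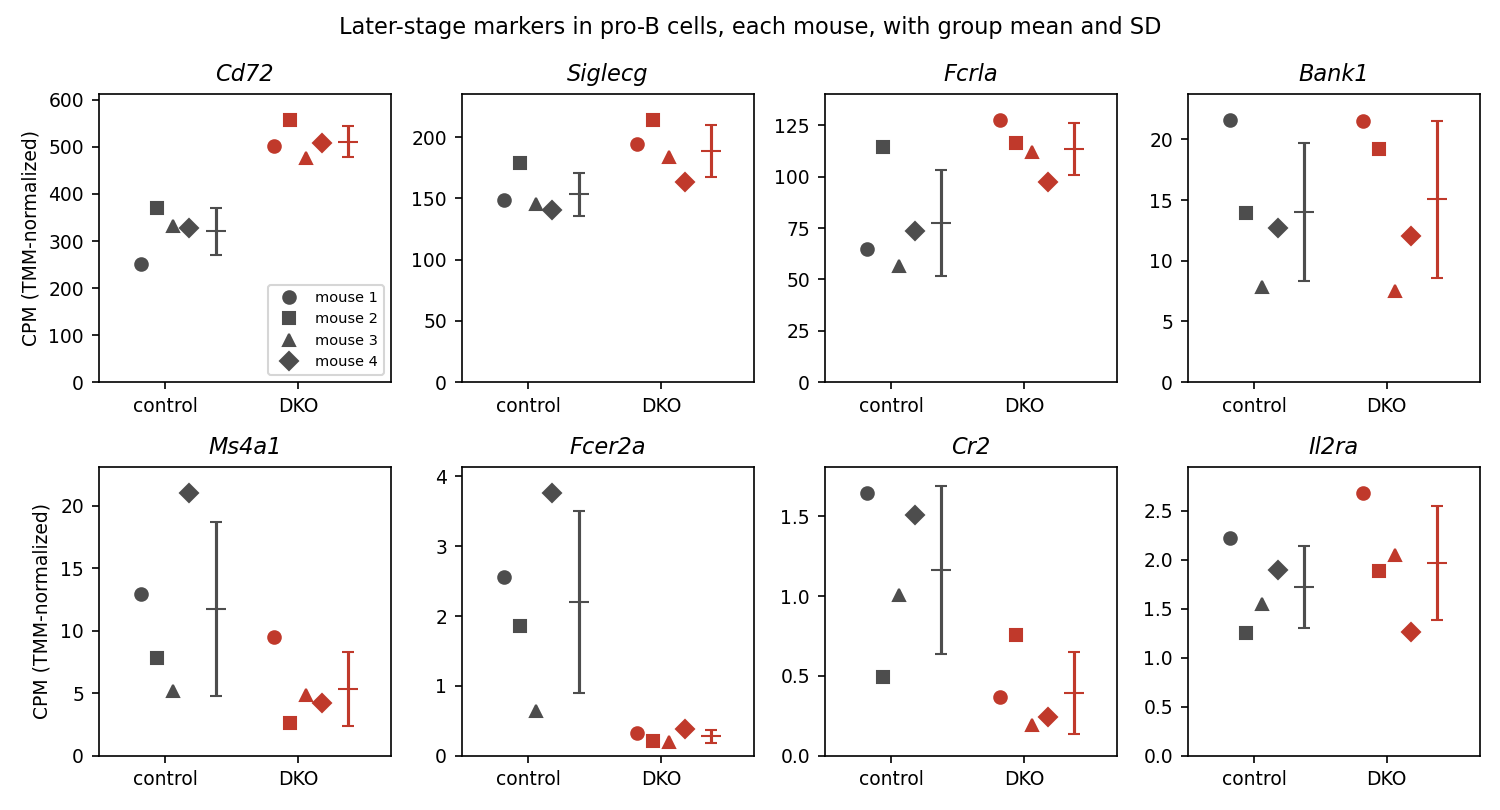
CPM of the 8 stage markers in each mouse on linear axes that start at 0, with a panel per gene, symbols for mouse numbers, and the group mean with its SD (n = 4) beside the points. The control and DKO points are apart for Cd72, from 252 to 371 against 477 to 558 CPM, and for Fcer2a, from 0.633 to 3.76 against 0.191 to 0.375 CPM, and overlap for the other 6.

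Per kilobase of exon, the markers of control cells fell into abundant and scarce genes. *Cd72* was at 213 ± 33.1 CPM per kb (SD, n = 4), *Siglecg* at 61.8 ± 6.999 and *Fcrla* at 44.8 ± 14.9. *Ms4a1* followed at 5.70 ± 3.39, *Bank1* at 4.29 ± 1.75, *Fcer2a* at 0.934 ± 0.554, *Il2ra* at 0.390 ± 0.0948 and *Cr2* at 0.187 ± 0.0846 CPM per kb. The ranges of neighbours in this order overlapped for *Siglecg* and *Fcrla*, for *Ms4a1* and *Bank1*, and for *Fcer2a* and *Il2ra*, and were separate elsewhere. As a label, "marker of later stages" therefore covered genes already abundant in this pro-B gate as well as genes close to absent from it. In DKO cells the order was *Cd72* (340 ± 22.4 CPM per kb, SD, n = 4), *Siglecg*, *Fcrla*, *Bank1*, *Ms4a1*, *Il2ra*, *Fcer2a* and *Cr2* (0.0629 ± 0.0414). *Fcer2a*, at 0.117 ± 0.0378 CPM per kb, lay below *Il2ra* in DKO cells without overlap, whereas the ranges of the 2 genes overlapped in control cells.

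*Cd72* encodes an inhibitory co-receptor that binds semaphorin 4D (CD100) and recruits the phosphatase SHP-1. The gene lies on the minus strand at chr4:43447724-43454626 (GRCm38). It was at 252, 371, 332 and 328 CPM in control mice 1 to 4 and at 501, 558, 477 and 509 CPM in DKO mice 1 to 4. Each DKO library was above each control library, and the DKO libraries were the closer to each other. Means were 320 ± 49.7 CPM for control and 511 ± 33.7 CPM for DKO mice (SD over 4 mice each), a ratio of 1.60. On the log2 scale *Cd72* rose by 0.67 (standard error 0.12, 95% interval 0.42 to 0.93, edgeR's adjusted p = 0.0109). *Cd72* overlaps *Tesk1*, which runs on the plus strand, and whether reads were counted by strand is not stated in the sources used here, so reads from the overlap cannot be told apart. *Tesk1*, which encodes a testis-associated kinase, was at 18.4 to 24.6 CPM in control and 24.5 to 30.5 CPM in DKO cells, with an adjusted p of 0.250 in the same edgeR test.

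The rise of *Cd72* passed the test in each of the 8 fits that left out 1 mouse. Within the 4 libraries with few neutrophil transcripts *Cd72* was higher in DKO cells by 0.60 on the log2 scale (adjusted p = 0.0218, edgeR), and within the 4 with many by 0.76 (adjusted p = 0.109, edgeR, 2 mice per group). The groups did not overlap in either set.

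*Siglecg* encodes an inhibitory receptor that binds sialic acids and restrains calcium signaling, best known in B-1 cells. It lies on the plus strand at chr7:43408280-43418349. Control mice 1 to 4 had 149, 179, 145 and 141 CPM, and DKO mice 1 to 4 had 195, 214, 184 and 164 CPM. Control mouse 2 was above DKO mouse 4, so the groups overlapped. Its log2 fold change of 0.30 (standard error 0.11, 95% interval 0.06 to 0.54) came with an unadjusted p of 0.0175 and an adjusted p of 0.142 (edgeR), which did not pass. Its spread was the smallest of the control values of the 8 markers, with a coefficient of variation of 11.3%.

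*Fcrla* encodes an Fc receptor-like protein that stays inside the B cell, where it binds immunoglobulin. It lies on the minus strand at chr1:170917594-170927583, and the annotation places the processed pseudogene *Gm2962* within it. Its levels were 65.0, 115, 56.3 and 73.6 CPM in control mice 1 to 4 and 128, 116, 112 and 97.5 CPM in DKO mice 1 to 4. Control mouse 2 was among the DKO values and the other control mice were below all of them. In the test *Fcrla* had a log2 fold change of 0.55 (standard error 0.19, 95% interval 0.13 to 0.97, adjusted p = 0.131, edgeR). Without control mouse 2 it was 0.80, and *Fcrla* passed (adjusted p = 0.00970, edgeR), and DESeq2 with all mice gave 0.55 with an adjusted p of 0.0440. The call for *Fcrla* thus rested on 1 control mouse and on the tool.

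*Bank1* encodes a scaffold protein that links the B cell receptor to LYN and to calcium release. The gene lies on the minus strand at chr3:136053364-136326066, opposite the antisense gene *Gm31243*. It was at 21.6, 13.97, 7.81 and 12.7 CPM in control mice 1 to 4 and at 21.5, 19.2, 7.47 and 12.0 CPM in DKO mice 1 to 4. Both groups spanned nearly the same range, with mouse 3 lowest and mouse 1 highest in each. *Bank1* had a log2 fold change of 0.10 (standard error 0.35, 95% interval -0.66 to 0.87, adjusted p = 0.906, edgeR). It was 0.91 within the libraries with few neutrophil transcripts and -0.82 within those with many, and neither passed edgeR's test (adjusted p = 0.0927 and 0.317).

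*Fcer2a* encodes CD23, the low-affinity receptor for IgE, which ADAM10 sheds from the surface of mature B cells. It lies on the minus strand at chr8:3681737-3694174. Control mice 1 to 4 had 2.56, 1.86, 0.633 and 3.76 CPM, from 98, 76, 27 and 147 counts, and DKO mice 1 to 4 had 0.324, 0.209, 0.191 and 0.375 CPM, from 14, 8, 8 and 14 counts. Each control library was above each DKO library, and the control libraries were far apart among themselves, mouse 4 being 5.94 times mouse 3. Means were 2.20 ± 1.31 CPM for control and 0.275 ± 0.0890 CPM for DKO mice (SD over 4 mice each), 8.02-fold lower in DKO. In the model *Fcer2a* fell by 2.99 on the log2 scale (standard error 0.55, 95% interval -4.20 to -1.78, edgeR's adjusted p = 0.0144).

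The call for *Fcer2a* was less firm than its fold. Without DKO mouse 3 the log2 fold change was -2.85 (adjusted p = 0.0546, edgeR), and limma-voom with all mice gave -2.71 (adjusted p = 0.0703). *Fcer2a* fell short of the threshold within the 4 libraries with few neutrophil transcripts (-2.20, adjusted p = 0.135, edgeR) and within the 4 with many (-3.48, adjusted p = 0.0787, edgeR), although the groups did not overlap in either set. With every count divided by 2, *Fcer2a* was still lower in DKO cells (-2.99, adjusted p = 0.0138, edgeR).

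*Ms4a1* encodes CD20, a tetraspanning protein that appears on pre-B cells and stays until plasma cell differentiation. It lies on the minus strand at chr19:11250603-11266151, opposite the antisense gene *4930526L06Rik*. Control mice 1 to 4 had 12.9, 7.79, 5.18 and 21.0 CPM, and DKO mice 1 to 4 had 9.52, 2.64, 4.89 and 4.18 CPM. Control mouse 4 was the highest of all 8 libraries, and DKO mouse 1 lay within the control range. *Ms4a1* had a log2 fold change of -1.14 (standard error 0.45, 95% interval -2.14 to -0.14) with an unadjusted p of 0.0288 and an adjusted p of 0.184 (edgeR), which did not pass. Without control mouse 4 it was -0.70, and within the libraries with few neutrophil transcripts it was -0.08.

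*Cr2* encodes the complement receptors CD21 and CD35, which bind complement fragments on mature cells. It lies on the minus strand at chr1:195136811-195176715. Control mice 1 to 4 had 1.64, 0.490, 1.01 and 1.51 CPM, from 63, 20, 43 and 59 counts, and DKO mice 1 to 4 had 0.370, 0.759, 0.191 and 0.241 CPM, from 16, 29, 8 and 9 counts. DKO mouse 2 was above control mouse 2, so the groups overlapped. The log2 fold change was -1.57 (standard error 0.56, 95% interval -2.80 to -0.34, adjusted p = 0.140, edgeR). It was -0.41 within the libraries with few neutrophil transcripts and -2.86 within those with many, and neither passed edgeR's test (adjusted p = 0.780 and 0.137).

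*Il2ra* encodes CD25, the alpha chain of the IL-2 receptor. The gene lies on the plus strand at chr2:11642792-11693194 and shares that strand with *Gm37881*. The gate leaves out cells with CD25 on their surface, and the part of the sort in the transcript level of *Il2ra* was not tested. Control mice 1 to 4 had 2.22, 1.25, 1.55 and 1.89 CPM, and DKO mice 1 to 4 had 2.68, 1.88, 2.05 and 1.26 CPM. The lowest values of both groups were alike and DKO mouse 1 was the highest. The log2 fold change was 0.19 (standard error 0.32, 95% interval -0.51 to 0.90, adjusted p = 0.786, edgeR). An increase of more than 0.90 or a decrease of more than 0.51 on this scale lay outside the interval. T cells also use CD25, and *Foxp3* had 2 counts in control mouse 1, 4 in DKO mouse 2 and 0 in the other libraries.

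**Figure D2:**
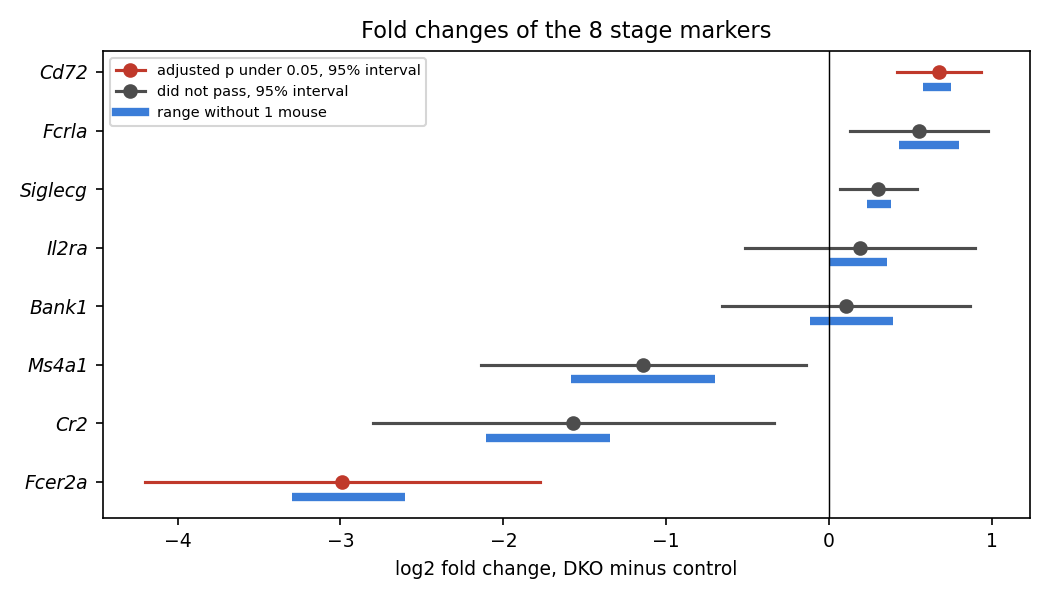
Log2 fold change, DKO minus control, of the 8 stage markers from edgeR (points) with its 95% interval (thin lines) and the range over the 8 fits that left out 1 mouse (thick blue lines), red where the adjusted p was under 0.05. Cd72 at 0.67 and Fcer2a at -2.99 passed, the intervals of Il2ra and Bank1 span 0, and the left-out range of Bank1 crosses 0.

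*Ms4a1*, *Fcer2a* and *Cr2* are all markers of mature B cells, and the ratios of their counts were examined after these values had been seen. *Fcer2a* made up 0.198, 0.239, 0.122 and 0.179 counts per *Ms4a1* count in control mice 1 to 4, and 0.0340, 0.0792, 0.0390 and 0.0897 in DKO mice 1 to 4. Each control ratio was above each DKO ratio, with a mean difference of -1.69 on the log2 scale, DKO minus control. The ratios of *Cr2* to *Ms4a1* and of *Fcer2a* to *Cr2* overlapped between the groups. Since the ratios were chosen with the separation of *Fcer2a* known, they are given as a description, with no test.

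**Figure D3:**
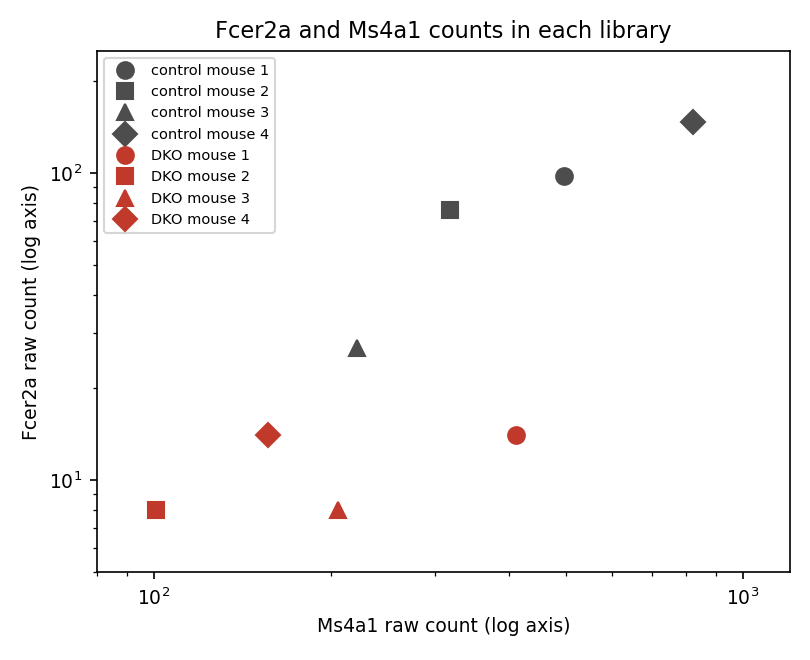
Raw counts of Fcer2a against those of Ms4a1 on log axes, 1 point per library, grey for control and red for DKO mice. Fcer2a had 8 to 14 counts in the DKO libraries while Ms4a1 reached 412 there, and control mouse 3 had 27 Fcer2a counts at 221 Ms4a1 counts.

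Markers of other cells were read beside the 2 called genes. The 6 stroma and endothelium markers summed to 2.87 to 6.34 CPM in control and 1.55 to 2.63 CPM in DKO cells without overlap. This sum was mostly *Cxcl12*, the stromal chemokine gene and the sole one of these tested. The sum and this gene are therefore not separate observations. *Cxcl12* fell by 1.47 on the log2 scale (adjusted p = 0.0322, edgeR). It lay lower in DKO cells without overlap, as did 6.21% of all genes tested. The other stroma and endothelium markers had at most 18 counts in any library, and each overlapped between the groups. Follicular dendritic cells also carry CD23 and CD21, and their chemokine gene *Cxcl13* had 4 counts in control mouse 3 and 0 in all other libraries. The 13 monocyte and macrophage markers summed to 416 to 1015 CPM in control and 292 to 741 CPM in DKO cells. Most of this sum was *Lyz2*, at 355 to 972 CPM in control and 275 to 701 CPM in DKO cells. *Lyz2* was highest in the 4 libraries with many neutrophil transcripts. Of these markers 12 were tested, and 11 had a log2 fold change below 0 (median -1.20). An unadjusted p under 0.05 in edgeR was reached by 6, and 2 were lower without overlap, *Cd5l* and *Fcgr1*. The 1 called lower was *Cd5l*, a gene of tissue macrophages, with a log2 fold change of -3.42 (adjusted p = 0.0354, edgeR). *Cd5l* had 62, 86, 48 and 24 counts in control and 0, 2, 12 and 6 in DKO mice, and met the filter only with the control libraries. Beside these markers, 47.6% of all genes tested had a log2 fold change above 0, 1.93% were called lower, and 2566 had an unadjusted p under 0.05. The sums of the 4 plasma cell markers (22.4 to 64.4 against 24.7 to 35.6 CPM), the 8 T cell markers (84.9 to 88.8 against 60.6 to 126 CPM), the 6 NK cell markers (17.1 to 79.1 against 26.1 to 70.7 CPM) and the 6 dendritic cell markers (4.31 to 12.8 against 9.38 to 11.2 CPM) overlapped between control and DKO cells, as did those of the 6 erythroid markers (29.4 to 108 against 13.0 to 35.6 CPM), of which 4 hemoglobin genes were at 0 in all libraries. The dendritic cell sum was mostly *Flt3*, also listed among genes of the pro-B stage, at 3.53 to 9.27 against 7.98 to 9.21 CPM. Of 4 dendritic cell markers tested 3 had a log2 fold change above 0, and *Siglech* was at -1.44. The plasma cell sum was mostly *Sdc1* and *Jchain*, with log2 fold changes of 0.45 and -0.99. None of the tested markers of these 2 lists passed edgeR's test, and both sums join genes of opposite direction. The T cell sum was mostly *Lck*, at 78.9 to 84.6 CPM in control and 58.1 to 123 CPM in DKO cells. Of the 5 T cell markers tested none passed edgeR's test. Above 0 were 2 log2 fold changes, those of *Cd3g* (0.44) and *Lck* (0.02), while *Cd4* was at -0.99 with overlap. The other 2 lay lower in DKO cells without overlap, as did 6.21% of all genes tested. *Cd3d*, a chain of the T cell receptor complex, was at 0.490 to 1.20 against 0.143 to 0.314 CPM (log2 fold change -1.79, adjusted p = 0.0589, edgeR). *Thy1*, a surface protein gene of T cells, was at 1.76 to 3.45 against 0.811 to 1.66 CPM (-1.01, adjusted p = 0.103, edgeR). *Cd3e*, below the filter, had 2 to 10 counts in control and 0 to 28 in DKO mice. None of the 3 NK cell markers tested passed, and *Prf1* lay higher in DKO cells without overlap, as did 7.63% of all genes tested. It was at 1.29 to 3.42 against 4.16 to 6.22 CPM (log2 fold change 0.93, adjusted p = 0.104, edgeR). The part of any of these other cells in the fall of *Fcer2a* was not tested.

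Among other co-receptors of the B cell receptor no call was made. Of 12 listed, 11 were tested and none passed edgeR's quasi-likelihood test, with 1 at an unadjusted p under 0.05 and a median log2 fold change of -0.02. DESeq2 and edgeR's likelihood ratio test called 1 higher each, and limma-voom called 0. The quasi-likelihood test called 4.58% of all 12714 genes tested, and 2566 of those had an unadjusted p under 0.05. The exception to the filter, *Fcrl5*, had 0, 0, 0 and 4 counts in control and 16, 4, 8 and 12 in DKO mice. *Cd81*, a tetraspanin of the B cell co-receptor complex, went from 369 ± 42.6 to 475 ± 40.1 CPM (log2 fold change 0.36, adjusted p = 0.0762, edgeR). *Btla*, an inhibitory receptor of mature lymphocytes, was at 1.60 ± 1.28 and 0.639 ± 0.255 CPM, *Fcrl1*, an activating co-receptor, at 3.85 ± 1.89 and 2.17 ± 0.440 CPM, and *Cd79b*, a signaling chain of the receptor itself, at 2997 ± 214 and 2775 ± 152 CPM (SD, n = 4 each, control first). None of these 3 passed.

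Of the other genes of pre-B and later stages, 23 were listed, 22 were in the table and 21 were tested. None was higher and 2 were lower by edgeR's quasi-likelihood test, with 6 at an unadjusted p under 0.05 and a median log2 fold change of -0.01. Among all 12714 genes tested 1.93% were called lower, and 2566 had an unadjusted p under 0.05. DESeq2 and the likelihood ratio test called 3 higher each, and limma-voom called 0. *Cd83*, which encodes a surface protein of activated and maturing B cells, had 2.24, 1.57, 0.750 and 2.05 CPM in control and 0.508, 0.105, 0.429 and 0.429 CPM in DKO mice. Its groups did not overlap, and it fell by 2.15 on the log2 scale (standard error 0.53, adjusted p = 0.0438, edgeR). With 22, 4, 18 and 16 counts in DKO mice 1 to 4, *Cd83* too met the filter only with the control libraries. *Cd1d1*, which presents lipid antigens and is high on marginal zone B cells, fell from 175 ± 13.8 to 123 ± 15.5 CPM (SD, n = 4 each; log2 fold change -0.51, adjusted p = 0.0214, edgeR). *Cd38*, an ectoenzyme gene (log2 fold change 0.50, adjusted p = 0.0956, edgeR), did not pass. *Cd83* missed the threshold in 7 of the 8 fits that left out 1 mouse and *Cd1d1* without DKO mouse 1, 2 or 3, so the count of 2 lower genes ranged from 0 to 2.

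Genes of the pro-B stage itself included 2 that rose, of 15 tested, and none that fell (edgeR's quasi-likelihood test), with 5 at an unadjusted p under 0.05 and a median log2 fold change of -0.06. The other 3 tools called none lower either. Of the 15, 7 had a log2 fold change above 0, and among all genes tested 2.65% were called higher and 1.93% lower. *Il7r*, which encodes the IL-7 receptor, rose from 236 ± 42.3 to 456 ± 27.9 CPM (SD, n = 4 each; log2 fold change 0.95, adjusted p = 0.00266, edgeR). *Kit*, whose product was used in the gate, rose from 17.9 ± 4.68 to 41.5 ± 8.95 CPM (log2 fold change 1.21, adjusted p = 0.00810, edgeR). The recombinase genes *Rag2* (log2 fold change -0.33, adjusted p = 0.124, edgeR) and *Rag1* (-0.42, adjusted p = 0.158, edgeR) did not pass. *Erg*, a transcription factor gene of blood progenitors, was at 81.3 to 122 CPM in control and 75.8 to 80.2 CPM in DKO cells without overlap (-0.30, adjusted p = 0.208, edgeR) and was named after its values were seen.

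Ligands and signaling partners of the 8 markers were tested for 17 of 18 listed genes, and none passed edgeR's quasi-likelihood test, with 4 at an unadjusted p under 0.05 and a median log2 fold change of 0.08. DESeq2 called 2 of them higher, edgeR's likelihood ratio test called 1 and limma-voom called 0. Over all 12714 genes tested the quasi-likelihood test called 4.58%, and 2566 had an unadjusted p under 0.05. *Il2*, the ligand of CD25, was below the filter with 0 to 4 counts per library. *Cd24a*, a ligand of Siglec-G, went from 1149 ± 76.0 to 1617 ± 304 CPM without overlap (SD, n = 4 each; log2 fold change 0.49, adjusted p = 0.0565, edgeR). *Plcg2*, the phospholipase of the receptor pathway (0.29, adjusted p = 0.0975, edgeR), *Lyn*, the kinase that BANK1 binds (0.34, adjusted p = 0.142, edgeR), and *Inpp5d*, the inhibitory phosphatase SHIP1 (0.21, adjusted p = 0.246, edgeR), did not pass.

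Of 19 regulators of the markers, 1 was higher and none was lower in edgeR's quasi-likelihood test, with 3 at an unadjusted p under 0.05 and a median log2 fold change of 0.09, and none was lower in the other 3 tools, beside 2.65% higher and 1.93% lower among all genes tested. *Stat5b*, a transcription factor downstream of the IL-2 and IL-7 receptors that controls *Il2ra*, rose from 34.7 ± 2.90 to 55.6 ± 2.65 CPM (SD, n = 4 each; log2 fold change 0.68, adjusted p = 0.00356, edgeR). Its relative *Stat5a* did not pass (0.18, adjusted p = 0.336, edgeR). *Il4ra*, the receptor chain through which IL-4 raises CD23 in mature B cells, was at 11.2 ± 1.67 and 15.3 ± 0.481 CPM (log2 fold change 0.45, adjusted p = 0.0882, edgeR), and *Ikzf3*, the factor Aiolos, at 6.93 ± 2.33 and 4.52 ± 0.777 CPM (-0.62, adjusted p = 0.208, edgeR). *Il4ra* lay higher in DKO cells without overlap, as did 7.63% of all genes tested. Whether its level bears on that of *Fcer2a* was not tested.

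**Figure D4:**
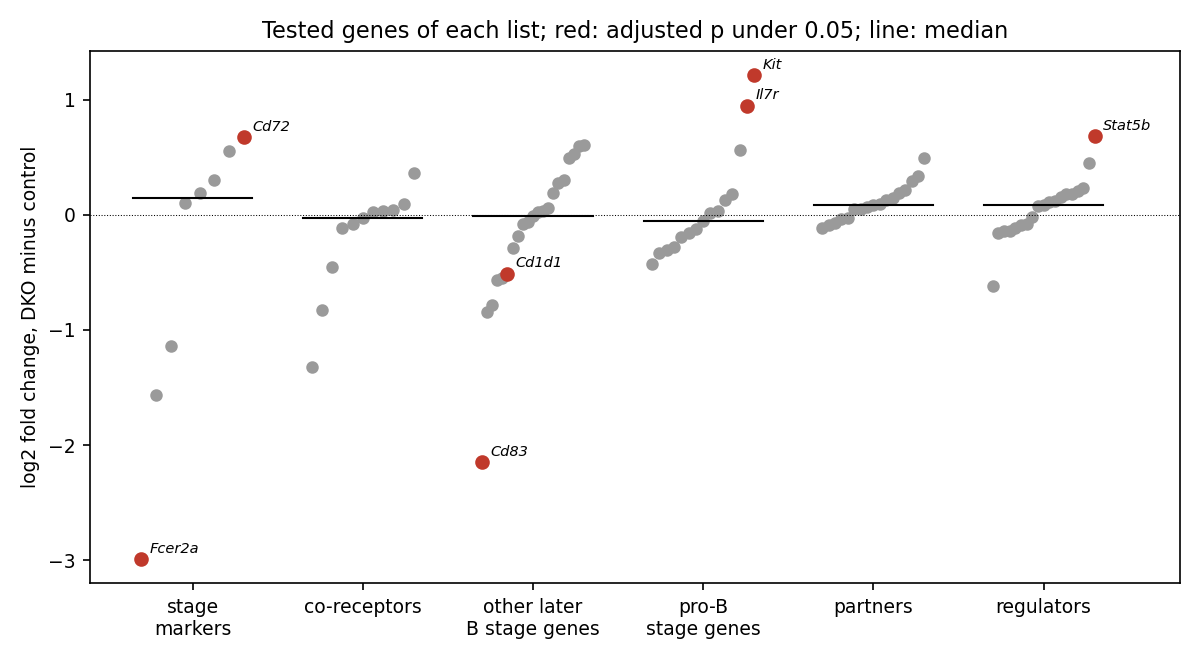
Log2 fold change, DKO minus control, of each tested gene in the 8 stage markers and in 5 lists around them, ordered within each list, with a line at the list's median and red points for an adjusted p under 0.05 in edgeR. Cd72, Kit, Il7r and Stat5b are the called genes above 0 and Fcer2a, Cd83 and Cd1d1 those below, while the medians lie between -0.06 and 0.15.

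The genes whose levels moved most like those of the 2 called markers between mice within the groups were picked from all 12714 tested genes. Likeness was Pearson's r over 8 libraries of log2(CPM + 0.5) after subtraction of each group's mean. It is a description of points that share library and depth. For *Cd72* they were *Amotl1* (r = 0.991), *Appl2* (0.990) and *Zdhhc8* (0.990), and for *Fcer2a* they were *Rrs1* (0.962), *Hspbp1* (0.960) and *5830444B04Rik* (0.957). None of these 6 genes passed edgeR's test between the groups.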

How the data were processed

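RNA of FACS-sorted pro-B cells from 8 mice was amplified by SMART-seq and sequenced as paired ends. The authors trimmed single-end reads with Trimmomatic, aligned them by STAR, and deposited the raw counts per gene that featureCounts gave, with no normalization. Tool versions, the use of strand and the treatment of reads that map to several places are not stated in what was read here. The submitters' processing notes name GRCm39, but of 24191 genes found by name in GENCODE M21, 99.6% overlap their position there, which is on GRCm38, and coordinates are given on that build. The table had 0 other columns of per-sample values, and 13 gene names that a spreadsheet had turned into dates.

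Counts were scaled by TMM, passed through filterByExpr (at least 10 in a group's size of libraries and 15 in total; 12714 genes remained), and tested by quasi-likelihood in edgeR 4.0.16 (R 4.3.3), with genotype as the only term and Benjamini-Hochberg adjustment at 0.05 over all genes tested. CPM values use TMM library sizes, and log2 fold changes carry a prior count of 0.125. Standard errors were taken from the F statistic. Alternatives were DESeq2 1.42.0, voom of limma 3.58.1, the likelihood ratio test of edgeR, other filters and scalings, a robust fit, a block for the replicate number, *Xist* as a covariate, leaving out immunoglobulin and hemoglobin genes, and fits without each mouse. The steps were tested on simulated data. Replicates differed by more than sampling noise in every pair. Seed matches were searched in 3' UTRs built from GENCODE M21 exons. The members, the lists and the alternatives were chosen with earlier results of these data known. Named are all 8 markers, in each list the genes past the threshold and otherwise those with the smallest p up to 4, and the 3 genes most like each called marker; exceptions to the filter, marker genes of other cells and the overlapping *Tesk1* were added for context after values were seen. A few genes and a site that these rules name are not reported here. Protein sequences were not used here.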

Additional observations from a re-analysis of the deposited data

Results flagged for a closer look

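*Cd1d1*, one of the 2 lower genes of later B stages, stood apart in 1 DKO mouse: DKO mouse 4 was at 146 CPM, whereas the other 3 DKO mice were at 112 to 117 CPM. The gap took 0.854 of the range of the group, above Dixon's critical value for 4 samples. Of the 56 groups of values examined in this way, chance alone flags about 1 in 20.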

How the results depend on the processing

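*Cd72* kept its direction and its call in 22 of 23 alternative fits, and *Fcer2a* kept both in 18 of 22 and its direction in all 22. The fit without immunoglobulin and hemoglobin genes still tested 12713 of the 12714 genes, so it could hardly differ from the main one. For *Cd72* the exception was the 4 libraries with many neutrophil transcripts (0.76, adjusted p = 0.109, edgeR). For *Fcer2a* the exceptions were limma-voom (-2.71), DKO mouse 3 left out (-2.85), and the 4 libraries with few (-2.20) or many (-3.48) neutrophil transcripts. A filter of 1 CPM in 4 libraries removed *Fcer2a* and *Cr2* before the test. The neutrophil splits, the neutrophil level as a covariate and counts divided by 2 were chosen after seeing the data. Leaving out 1 mouse gave log2 fold changes of 0.57 to 0.75 for *Cd72*, -3.30 to -2.60 for *Fcer2a*, -1.58 to -0.70 for *Ms4a1*, -2.11 to -1.35 for *Cr2*, 0.00 to 0.36 for *Il2ra*, 0.24 to 0.38 for *Siglecg*, -0.12 to 0.39 for *Bank1* and 0.43 to 0.80 for *Fcrla*. *Bank1* turned below 0 in the fits that left out control mouse 3 (-0.10), DKO mouse 1 (-0.12) and DKO mouse 2 (-0.04) and in the libraries with many neutrophil transcripts (-0.82), where *Il2ra* did too (-0.31). *Btla* (0.35) and *Fcrl1* (0.043) turned above 0 in the libraries with few. *Fcrla* passed in DESeq2 (0.55) and without control mouse 2 (0.80). The causes were not tested.

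The number of markers called higher was 2 in DESeq2, 0 in the libraries with many neutrophil transcripts and 1 to 2 without 1 mouse. The number called lower was 0 in limma-voom, with the 1 CPM filter and in either neutrophil split, and 0 to 1 without 1 mouse. Co-receptors higher numbered 1 in the likelihood ratio test, DESeq2 and with *Xist* as a covariate, and 0 to 1 without 1 mouse. Other later-stage genes higher numbered 3 in the likelihood ratio test and DESeq2, 1 with the neutrophil covariate and in the libraries with many neutrophil transcripts, and 0 to 1 without 1 mouse. Those lower numbered 1 in limma-voom, with the 1 CPM filter and with the neutrophil covariate, 0 in the libraries with many neutrophil transcripts, and 0 to 2 without 1 mouse. Pro-B genes higher numbered 1 in the libraries with many neutrophil transcripts, and those lower numbered 1 in the libraries with few and 0 to 1 without 1 mouse. Partners higher numbered 1 in the likelihood ratio test and with *Xist*, 2 in DESeq2 and with the neutrophil covariate, and 0 to 1 without 1 mouse. Regulators higher numbered 2 in DESeq2 and 0 in the libraries with many neutrophil transcripts, and those lower 0 to 1 without 1 mouse. Over all tested genes DESeq2 called 674 higher and 568 lower, the likelihood ratio test 519 and 461, *Xist* as a covariate 559 and 506, and library size alone 263 and 279, against 337 and 245. Without division by exon length *Bank1* took place 4 and *Ms4a1* place 5 in control cells. The shortest 3' UTRs left 1 marker with a match.

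The replicate numbers did not pair the mice: deviations of same-numbered mice correlated at -0.24, 0.09, -0.23 and -0.06. With the number as a block, *Cd72* (0.69, adjusted p = 0.0354, edgeR) and *Fcer2a* (-2.82, adjusted p = 0.0338, edgeR) passed, 0 other later-stage genes were lower, and 94 genes were higher and 54 lower in all. No control mouse correlated best with the DKO mouse of its own number. Below about 1 CPM, as for *Fcer2a* and *Cr2* in DKO cells, values rest on 8 to 29 counts.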
